A study of Mus musculus with 12 samples.

Results

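H3K4me3, the trimethylation of lysine 4 on histone H3 that marks active and poised promoters, was read at the peaks of developmental transcription factor genes in adult mouse cardiomyocytes (CMs). The genes belong to the Hox, Pax, Lhx, Irx, Dlx, Sox and forkhead (Fox) families and to the sine oculis family, with genes such as Six4 and Six5. Members were chosen by gene name alone. They are the autosomal peaks of protein-coding genes called Hoxa to Hoxd, Pax, Lhx, Irx, Dlx or Sox with a number, Fox with a letter and a number, or a sine oculis name, without the cell cycle gene Foxm1. No measured value entered this rule. It gave 47 of the 15848 peaks in the table, belonging to 39 genes. Of these, 45 peaks of 38 genes reached a mean of at least 10 normalized counts over the libraries and were tested among 15039 peaks in all. The remaining 2 were the Foxn4 peak, with a mean of 8.33, and a small second Irx3 peak, with a mean of 8.0.

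The libraries came from ventricular CM nuclei that were sorted for PCM1, a protein of the nuclear envelope of CMs. CtrlCre stands for αMHC-Cre pos/+;Cpt1b +/+ mice and Cpt1bcKO for αMHC-Cre pos/+;Cpt1b fl/fl mice, with 3 H3K4me3 libraries each. Both genotypes therefore carried the Cre recombinase, which the αMHC promoter drives in CMs from embryonic stages on, and Cpt1bcKO CMs lost Cpt1b, the muscle enzyme that passes long-chain fatty acids to mitochondria. The labels give the animals as adult, state no age, and do not say whether each library came from a separate animal, so the p-values measure the spread between these libraries. The comparison asks where H3K4me3 differs in CMs that cannot take long-chain fatty acids into mitochondria.

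Recovered counts in peaks ranged from 763133 in CtrlCre replicate 2 to 2766416 in Cpt1bcKO replicate 2, a 3.63-fold range. For every pair of libraries log2 values correlated at 0.914 to 0.967 across all tested peaks and at 0.935 to 0.977 across the members. Peaks on the Y chromosome held counts only in replicate 3 of each genotype, that is in 1 library per genotype. The peak of Cpt1b itself was not used as a check of the deletion. It held 428, 407 and 436 normalized counts in CtrlCre and 572, 689 and 568 in Cpt1bcKO, a log2 difference of 0.52 (limma, adjusted p = 0.00357). All 15 listed CM marker genes had a tested peak, with summed values of 11806 to 14047 in CtrlCre and 9325 to 12967 in Cpt1bcKO. Of their 16 peaks 3 were higher and 13 lower in Cpt1bcKO, where 48.8% of all tested peaks were lower. Their median log2 difference was -0.15, and 1 peak, that of Actc1, had an adjusted p under 0.05 (limma, 0.00179, lower in Cpt1bcKO). None of the 8 macrophage and lymphocyte markers and none of the 7 Schwann cell and neuron markers had a tested peak. Tested peaks were present for 3 of 12 endothelial markers, summing to 136 to 230 in CtrlCre and 131 to 159 in Cpt1bcKO, and for 1 of 10 fibroblast markers, at 58 to 69 and 56 to 63. Of 9 smooth muscle and pericyte markers 5 had a tested peak, and their sum was 185 to 282 in CtrlCre and 64 to 132 in Cpt1bcKO. The part of other cell types in the values of the members was not tested.

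Homeobox and Pax proteins bind DNA through a homeodomain or a paired domain, Sox proteins through a high mobility group box and Fox proteins through a winged helix domain. In embryos these families lay down body axes and cell fates, and in differentiated cells most of their genes are silent and held by Polycomb repressors, often at promoters rich in CG dinucleotides. A cell type keeps a few of them active. In CMs the Iroquois factors pattern the ventricle and its electrical activity, FoxO factors respond to insulin and energy supply, and several Sox and FoxP factors act during heart development. Wide H3K4me3 domains are known to lie over genes that define a cell type.

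Promoter sequences of 5 genes are printed below, chosen to set marked beside unmarked members. They are the gene with the highest control value (Foxo3), the gene with the widest peak (Irx4), the gene with the smallest p between genotypes (Sox4), and, among the genes without a peak under their name, the Hox gene and the Pax or Sox gene whose window held the most CG (Hoxa13 and Sox1). Each is the 200 bases before the gene start, 5′ to 3′ on the strand of the gene, from RefSeq on GRCm38.p6, with every CG dinucleotide in capitals. CG reads the same on both strands. The Foxo3 window is chr10:42276696-42276895 on the minus strand, Irx4 is chr13:73260297-73260496 on the plus strand, Sox4 is chr13:28953700-28953899 on the minus strand, Hoxa13 is chr6:52260881-52261080 on the minus strand and Sox1 is chr8:12395319-12395518 on the plus strand.
Foxo3: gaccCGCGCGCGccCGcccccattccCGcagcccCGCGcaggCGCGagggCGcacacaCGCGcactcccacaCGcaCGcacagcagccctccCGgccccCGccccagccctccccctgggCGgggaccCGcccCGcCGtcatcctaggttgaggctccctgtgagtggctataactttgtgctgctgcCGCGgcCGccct
Irx4: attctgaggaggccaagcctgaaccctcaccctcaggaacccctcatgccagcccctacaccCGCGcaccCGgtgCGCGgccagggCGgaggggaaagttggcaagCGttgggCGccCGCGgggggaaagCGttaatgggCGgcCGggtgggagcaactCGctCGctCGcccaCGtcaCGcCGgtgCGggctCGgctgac
Sox4: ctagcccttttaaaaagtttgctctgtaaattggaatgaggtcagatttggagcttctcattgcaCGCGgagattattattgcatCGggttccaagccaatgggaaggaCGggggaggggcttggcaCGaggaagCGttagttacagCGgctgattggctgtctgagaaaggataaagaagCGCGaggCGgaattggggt
Hoxa13: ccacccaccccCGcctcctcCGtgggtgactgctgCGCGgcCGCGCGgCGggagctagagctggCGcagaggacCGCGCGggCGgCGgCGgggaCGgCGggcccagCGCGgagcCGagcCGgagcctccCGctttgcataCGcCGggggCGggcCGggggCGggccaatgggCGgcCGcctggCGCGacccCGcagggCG
Sox1: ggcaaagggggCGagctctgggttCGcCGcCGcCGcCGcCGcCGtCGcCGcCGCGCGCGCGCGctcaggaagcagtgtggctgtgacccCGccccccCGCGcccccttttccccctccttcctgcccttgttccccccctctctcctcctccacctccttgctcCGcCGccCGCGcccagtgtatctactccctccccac

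The marked promoters of Foxo3, Irx4 and Sox4 held 24, 21 and 10 CG. The unmarked ones of Hoxa13 and Sox1 held 33 and 23. Across all 32851 promoter windows of the reference, 34.2% held at least 10 CG in the same 200 bases and 12.7% held at least 20, and the median was 5. The 2 unmarked genes were picked for their CG and show only that promoters rich in CG are found on both sides. Over the families as a whole no such comparison was made, because windows matched only 85 of 132 genes by symbol, or 64.4%.

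Most genes of these families carried no H3K4me3 peak under their name in CMs. Of 132 autosomal family genes in the GENCODE vM21 annotation, 38 had a tested peak, or 28.8%, beside 50.3% of all 20780 autosomal protein-coding gene names. The families differed in this share. The Irx family had tested peaks for 5 of 6 genes, the sine oculis and Sox families for 3 of 6 and 9 of 18, and the Fox family for 17 of 40. The Hox family had them for 2 of 39, the Lhx family for 1 of 8, the Dlx family for 1 of 6 and the Pax family for 0 of 9. Requiring a mean of at least 50 left 24 genes with a peak.

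**Figure D1:**
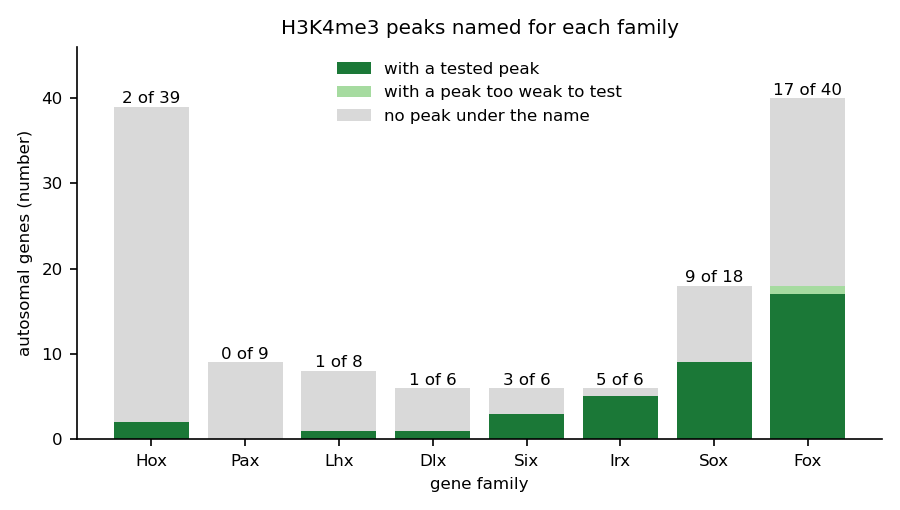
Number of autosomal genes in each family (vertical axis), split by whether the table used here holds a tested H3K4me3 peak under the gene name, a peak too weak to test, or none. Above each bar stands the number with a tested peak of the number in the family, from 2 of 39 for Hox and 0 of 9 for Pax to 5 of 6 for Irx and 17 of 40 for Fox.

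Peaks are named after a single promoter within 5000 bases, so a gene can be marked at a start that its name does not cover. Starts of family genes were also found in peaks that carried no gene name or belonged to a non-coding transcript. Foxn3 and Sox5 had no peak under their own names but such peaks at alternative starts, 3 for Foxn3 and 1 for Sox5. Foxn3 is a transcriptional repressor, and its strongest such peak (chr12:99391388-99394533) held 204, 179 and 185 normalized counts in CtrlCre replicates 1 to 3 and 181, 155 and 178 in Cpt1bcKO. Foxp1 had 3 such peaks beside its own, and Foxp2 had 1. The unnamed Foxp2 peak (chr6:15183973-15189565) was 5592 bases wide, with 106, 100 and 101 in CtrlCre and 69, 104 and 79 in Cpt1bcKO. None of these peaks of Foxn3, Sox5, Foxp1 and Foxp2 had an adjusted p under 0.05 between genotypes in limma's test, and the lowest adjusted p among them was 0.412.

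The 4 Hox clusters, which set position along the body axis in embryos, were nearly free of the mark. The Hoxa, Hoxc and Hoxd clusters had 1 peak each within 5000 bases, and there was none at the Hoxb cluster, whose 10 genes span 173941 bases on chr11. The Hoxa7 peak (chr6:52221398-52222084) was 686 bases wide and covered the gene start, with 29, 23 and 25 normalized counts in CtrlCre and 18, 32 and 46 in Cpt1bcKO. The Hoxd1 peak (chr2:74762799-74763217) was 418 bases wide and also held the start of the non-coding gene Haglr, with 12, 14 and 16 in CtrlCre and 10, 6 and 17 in Cpt1bcKO. The Hoxc peak (chr15:102998950-102999775) carried no gene name and held 35, 33 and 34 in CtrlCre and 31, 30 and 29 in Cpt1bcKO. All 3 were narrow, that is under the 25th percentile of width of all tested peaks, 1030 bases. At the depth of these libraries a floor of 3 counts equals 1.95 to 6.97 normalized counts. The lowest Hoxd1 value, 6 in Cpt1bcKO replicate 2, lay above the floor of 1.95 in that library. The 14 of CtrlCre replicate 2 lay above a floor of 6.97. The genotypes overlapped at Hoxa7 and Hoxd1. At the Hoxc peak, which without a name is not counted among the members, the 3 CtrlCre values lay above those of Cpt1bcKO. Adjusted p in limma was 0.858, 0.798 and 0.856 for the Hoxa7, Hoxd1 and Hoxc peaks.

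Pax3 and Pax7, the paired-box genes of muscle progenitors, had no peak under their names in the table used here, nor had the other Pax genes. Lhx5, a LIM homeobox gene of the forebrain, had a weak peak 4268 bases downstream of its nearest start (chr5:120435448-120436486), 66.6% intron by length, with 20, 16 and 14 in CtrlCre and 18, 11 and 21 in Cpt1bcKO. Dlx5, a homeobox gene of bone and facial development, had a narrow peak over exon sequence (chr6:6881358-6881982). It held 16, 9 and 13 in CtrlCre and 18, 30 and 21 in Cpt1bcKO, so the 3 Cpt1bcKO values lay above all CtrlCre values. The 9 in CtrlCre replicate 2 was close to the floor of that library, 6.97. The means were 12.7 ± 3.51 (SD, n = 3) and 23.0 ± 6.24 (SD, n = 3), a log2 difference of 0.81 ± 0.39 (SE; limma, two-sided, adjusted p by Benjamini-Hochberg over all tested peaks 0.381).

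Members that were marked had wide peaks more often than all tested peaks did, and their median density was lower. The median width was 2123 bases against 1514 bases over all tested peaks. Broad peaks, wider than the 75th percentile of 2222 bases, made up 22 of 45 members or 48.9%, beside 25% of all tested peaks, and 15 members or 33.3% exceeded the 90th percentile of 3325 bases. Widths over 5000 bases were found in 7 members, 15.6%, beside 3.36% of all tested peaks. With the percentile taken over peaks of protein-coding genes 42.2% of the members were broad. The median CtrlCre value was 83.3 normalized counts per peak beside 101 over all tested peaks, and 36.8 per kb beside 60.4. Their DNA was rich in G and C, with a median of 62.0% beside 55.6%. The core cardiac transcription factors, a list of 25 genes such as Tbx5 and Myocd, were broader still at 17 of 23 peaks (73.9%), while numbered zinc finger genes were broad at 36 of 257 (14%).

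**Figure D2:**
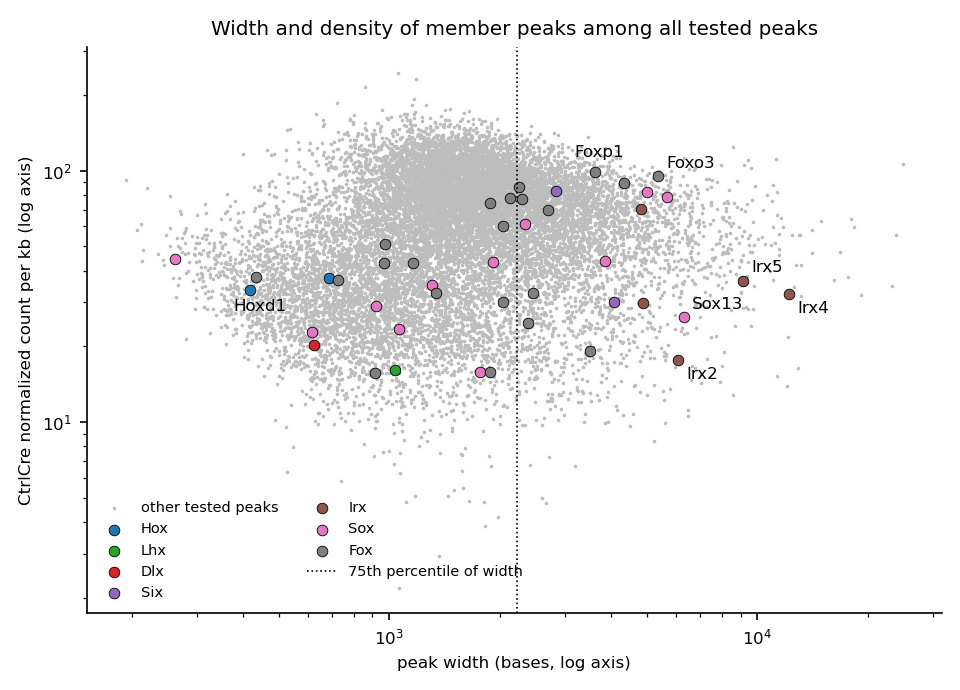
Width of tested peaks (horizontal, bases, log axis) against their mean CtrlCre normalized count per kb (vertical, log axis), with 44 member peaks as coloured points by family and the tested peaks that are no members in grey; the dotted line is the 75th percentile of width, 2222 bases. Irx4 and Irx5 lie at the far right at 12219 and 9165 bases with 32.2 and 36.5 per kb, while Foxp1 and Foxo3 are both wide and dense at 98.7 and 95.3 per kb.

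Of the tested member peaks 36 contained an annotated start of their own gene, with a median CtrlCre value of 122, and 9 did not, with a median of 25. In 14 peaks the start of another gene lay in the same interval, for example Crnde beside Irx5, Fendrr beside Foxf1 and Irx3os beside Irx3. H3K4me3 there cannot be told apart between the neighbours. Peaks of 7 genes came in more than 1 piece.

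The Iroquois genes, which encode homeodomain factors of the TALE class and lie in paired clusters on chr8 and chr13, had the widest domains. Irx4, a factor of ventricular identity, had a peak of 12219 bases (chr13:73260044-73272263), wider than 99.9% of tested peaks, that covered the gene start and was 53.4% intron by length. Its density was 32.2 normalized counts per kb. Normalized counts were 369, 402 and 411 in CtrlCre and 360, 368 and 331 in Cpt1bcKO. The lowest CtrlCre value thus lay 1 normalized count above the highest Cpt1bcKO value, and the log2 difference was -0.16 ± 0.10 (SE, adjusted p = 0.527). Irx5, which shapes the gradient of repolarization across the ventricle wall, had a peak of 9165 bases (chr8:92352907-92362072) at 36.5 per kb. It held 351, 284 and 368 in CtrlCre and 309, 363 and 301 in Cpt1bcKO, and the genotypes overlapped.

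Irx3, a gene of the ventricular conduction system, was the densest of the family at 70.2 per kb over 4826 bases (chr8:91797774-91802600). Its values of 327, 356 and 334 in CtrlCre all lay above 304, 299 and 282 in Cpt1bcKO. The means were 339 and 295, a log2 difference of -0.20 ± 0.09 (SE, adjusted p = 0.363). The weak second Irx3 peak, which was not tested, held 12, 12 and 8 in CtrlCre and 2, 6 and 8 in Cpt1bcKO. The 2 in Cpt1bcKO replicate 1 lay under the floor of that library, 3.39. Irx2 (chr13:72627398-72633490), 6092 bases wide at only 17.7 per kb, held 103, 139 and 81 in CtrlCre and 87, 70 and 87 in Cpt1bcKO. The CtrlCre values spread widely here and overlapped with Cpt1bcKO, and the log2 difference of -0.37 ± 0.17 (SE) had an adjusted p of 0.355. It was -0.17 without CtrlCre replicate 2 and -0.56 without CtrlCre replicate 3. Irx1 (chr13:71959301-71964188) held 130, 153 and 152 in CtrlCre and 138, 170 and 140 in Cpt1bcKO, with no separation. Irx6, next to Irx5 on chr8, had no peak under its name in the table used here.

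Sine oculis genes encode homeobox factors that act with Eya coactivators in muscle. Six4 and Six5 each had a broad peak. Six4 was the denser at 82.7 per kb (chr12:73110927-73113760), with 225, 265 and 213 in CtrlCre and 279, 246 and 260 in Cpt1bcKO. Six5 (chr7:19092498-19096570) lies beside the muscle kinase gene Dmpk and held 128, 126 and 113 in CtrlCre and 97, 94 and 111 in Cpt1bcKO. The 3 CtrlCre values of Six5 were above those of Cpt1bcKO, the closest pair being 113 and 111. The difference on the log2 scale was -0.28 ± 0.13 (SE, adjusted p = 0.354).

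Sox genes were marked in several of their subgroups. Among the SoxC genes, which act in progenitor cells and in the outflow tract of the heart, Sox4 was the strongest. Its main peak (chr13:28949291-28954304) covered the start and most of the single exon of the gene, was 5013 bases wide and held 401, 481 and 352 in CtrlCre and 337, 292 and 331 in Cpt1bcKO. All CtrlCre libraries lay above all Cpt1bcKO libraries. The means were 411 ± 65.1 (SD, n = 3) and 320 ± 24.4 (SD, n = 3), a log2 difference of -0.35 ± 0.11 (SE; 95% interval -0.58 to -0.13). The adjusted p of 0.0957 was the lowest of all members. Leaving out CtrlCre replicate 3 gave -0.46 with an adjusted p of 0.0293. Without any other single library the adjusted p lay between 0.161 and 0.362, and the log2 difference was smallest, at -0.23, without CtrlCre replicate 2. A second Sox4 peak, upstream of the gene (chr13:28957808-28960138), held 131, 149 and 147 in CtrlCre and 128, 139 and 144 in Cpt1bcKO, with a log2 difference of -0.05 ± 0.11 (SE). This weaker peak made up 23.6% to 29.5% of the sum of both peaks in CtrlCre and 27.5% to 32.2% in Cpt1bcKO, ranges that overlap.

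The other SoxC genes were Sox11 and Sox12. Sox12 had a broad peak at 43.6 per kb (chr2:152395560-152399420), with 172, 179 and 154 in CtrlCre and 167, 174 and 230 in Cpt1bcKO. Sox11 had 2 weak pieces, at 28.9 and 15.9 per kb. Its downstream piece (chr12:27338673-27339595) held 32, 23 and 25 in CtrlCre and 21, 36 and 47 in Cpt1bcKO. The piece at the gene start (chr12:27341906-27343671) held 13, 35 and 36 in CtrlCre and 24, 27 and 35 in Cpt1bcKO.

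Sox6 and Sox13 belong to the SoxD group, whose members lack an activation domain and act with partners. Sox6, known in skeletal muscle as a repressor of slow fibre genes, had the second strongest peak of all members (chr7:116029349-116035040), with 475, 414 and 446 in CtrlCre and 421, 428 and 422 in Cpt1bcKO. The Cpt1bcKO libraries lay within the range of CtrlCre, and the 95% interval of the log2 difference was -0.26 to 0.13. A second Sox6 peak, which also holds a start of 1110004F10Rik, held 97, 74 and 79 in CtrlCre and 103, 92 and 88 in Cpt1bcKO. Sox13 (chr1:133418128-133424445) spanned 6317 bases at 26.2 per kb, with 149, 209 and 138 in CtrlCre and 149, 124 and 150 in Cpt1bcKO.

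Sox7 and Sox18 belong to the SoxF group of endothelial factors, and Sox17, the other member, had no peak under its name. The Sox7 peak (chr14:63942698-63944001) covered the gene start, with 42, 51 and 44 in CtrlCre and 29, 18 and 32 in Cpt1bcKO. All CtrlCre libraries were above all Cpt1bcKO libraries. The means were 45.7 ± 4.73 (SD, n = 3) and 26.3 ± 7.37 (SD, n = 3), a log2 difference of -0.81 ± 0.27 (SE; 95% interval -1.37 to -0.24; adjusted p = 0.137). Sox18, weak at 23.5 per kb over its coding exons (chr2:181670382-181671446), held 17, 37 and 21 in CtrlCre and 29, 18 and 27 in Cpt1bcKO. The summed endothelial markers given above, Kdr, Flt1 and Esam, overlapped between the genotypes. All 3 peaks had a log2 difference below 0, with a median of -0.22. Kdr alone held 39, 91 and 64 in CtrlCre and 31, 45 and 51 in Cpt1bcKO. Its log2 difference was -0.55 (limma, unadjusted p = 0.0481, adjusted p = 0.382). Cdh5, Pecam1 and Tie1 were among the 9 endothelial markers without a tested peak. The part of endothelial nuclei in the Sox7 values was not tested. Narrow peaks of Sox21 and Sox30, genes of neural and germ cells, stayed between 9 and 21 normalized counts in every library. Sox9, Sox10, Sox2, Sox8, Sox14, Sox15 and Sox1 had no peak under their names.

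Forkhead genes ranged from strongly marked regulators of metabolism and growth to genes of other organs with weak peaks or none. The FoxO factors are kept out of the nucleus by insulin signalling and turn on genes of protein breakdown and stress resistance. Foxo3 had the highest value of all members (chr10:42273383-42278746, 95.3 per kb), with 504, 411 and 618 in CtrlCre and 503, 571 and 560 in Cpt1bcKO. Its CtrlCre libraries spread more than its Cpt1bcKO libraries and enclosed them. Foxo1 (chr3:52266751-52271091, 89.0 per kb) held 399, 418 and 342 in CtrlCre and 379, 359 and 431 in Cpt1bcKO. The 95% interval of the log2 difference was -0.14 to 0.36 for Foxo3 and -0.20 to 0.23 for Foxo1. Foxo6 was split into 3 weak peaks of 14 to 67 normalized counts.

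The FoxP factors form dimers and repress transcription, and Foxp1 and Foxp4 act in the developing myocardium. Foxp1 was the densest member at 98.7 per kb (chr6:99520307-99523932), with 343, 367 and 363 in CtrlCre and 357, 363 and 380 in Cpt1bcKO. Of all members it had the most precise difference, 0.04 ± 0.09 (SE) on the log2 scale. Foxp4 (chr17:47922744-47925437) held 171, 225 and 167 in CtrlCre and 201, 157 and 188 in Cpt1bcKO. Foxp2, best known from speech and motor circuits, was marked at 32.6 per kb, with 92, 49 and 99 in CtrlCre and 90, 97 and 110 in Cpt1bcKO.

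Foxk1 and Foxk2, which regulate glycolysis and autophagy, were of medium width at 60.3 and 74.5 per kb. Foxk1 (chr5:142400924-142402958) held 126, 121 and 121 in CtrlCre and 119, 123 and 129 in Cpt1bcKO. Foxk2 (chr11:121259224-121261099) held 132, 165 and 122 in CtrlCre and 166, 139 and 143 in Cpt1bcKO. Foxj3, a factor of muscle regeneration (chr4:119538775-119540898), held 167, 172 and 157 in CtrlCre and 155, 152 and 170 in Cpt1bcKO. None of these 3 genes separated the genotypes. Foxn2 (chr17:88439909-88442200) did, with 182, 181 and 169 in CtrlCre below 236, 190 and 199 in Cpt1bcKO. The difference on the log2 scale was 0.23 ± 0.11 (SE, adjusted p = 0.377), and 0.13 without Cpt1bcKO replicate 1.

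Forkhead genes of vessels and mesenchyme were weaker. Foxc1, a gene of neural crest and vessels (chr13:31806522-31808900), held 66, 46 and 65 in CtrlCre and 59, 51 and 88 in Cpt1bcKO. Foxf1, active in mesenchyme and lung vessels (chr8:121082929-121084965), held 51, 53 and 79 in CtrlCre and 62, 57 and 58 in Cpt1bcKO. Foxc2 and Foxs1 had no peak under their names. The summed smooth muscle and pericyte markers did not overlap between genotypes, as given above. Acta2 was the only 1 of these 5 with an adjusted p under 0.05 in limma (7.36e-05). It held 97, 119 and 71 in CtrlCre and 29, 10 and 24 in Cpt1bcKO. The log2 difference was below 0 for all 5, with a median of -0.72. It was -1.05 for Cspg4 (limma, adjusted p = 0.061), -0.72 for Myh11 and -0.61 for Cnn1. The Kcnj8 mean was 28.3 in both genotypes. Foxc1 and Foxf1 overlapped between genotypes, and the part of smooth muscle cells and pericytes in their values was not tested. Foxd2, Foxf2, Foxj1 and Foxl2, which act in kidney, mesenchyme, ciliated cells and ovary, stayed between 5 and 56 normalized counts in every library. The liver and gut factors Foxa1, Foxa2 and Foxa3 had no peak under their names.

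**Figure D3:**
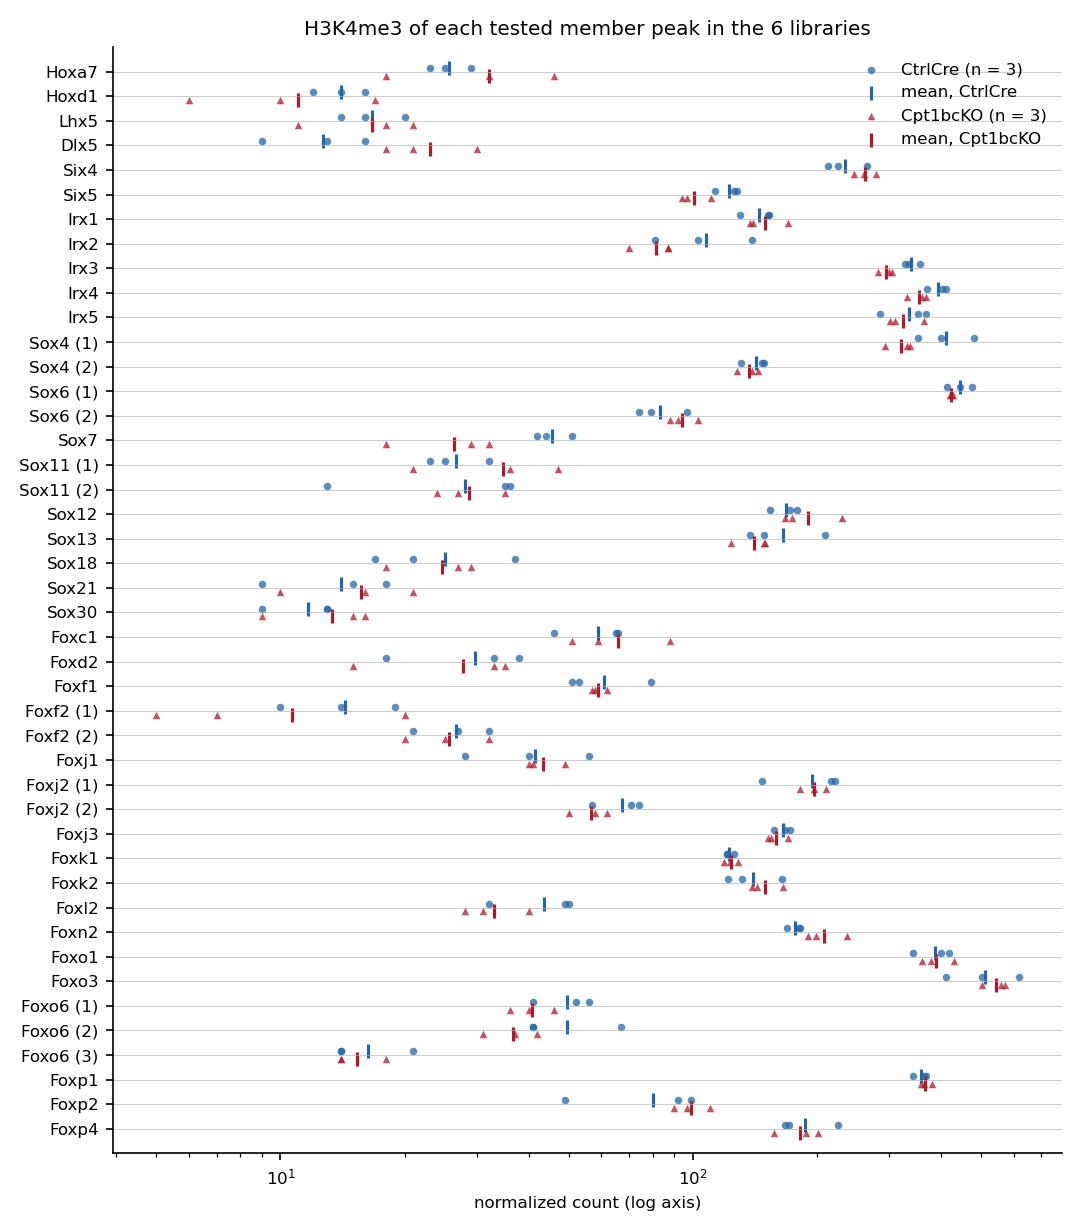
Normalized counts (horizontal, log axis) of 44 tested member peaks in the 3 CtrlCre libraries (blue circles) and the 3 Cpt1bcKO libraries (red triangles), with vertical ticks at the means; numbers in brackets tell peaks of 1 gene apart in order along the chromosome. Values run from 5 at Foxf2 to 618 at Foxo3, and for 37 of 44 peaks the genotypes overlap.

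Between the genotypes 0 of 45 members had an adjusted p under 0.05, in limma on normalized values and in limma-voom on recovered counts. Over all tested peaks 441 of 15039 did, 2.93%, with 1.11% higher and 1.82% lower in Cpt1bcKO. An unadjusted p under 0.05 was found for 7 of 45 members (15.6%), where 12.8% of all tested peaks had one. Of these, Sox4, Sox7, Six5, Irx2 and Irx3 had lower and Foxn2 and Dlx5 higher means in Cpt1bcKO, 11.1% and 4.44% of members beside 6.98% and 5.84% of all tested peaks. The split was 1 higher and 6 lower after quantile normalization and 0 higher and 5 lower after upper-quartile scaling. The 3 values of 1 genotype lay wholly above those of the other in 7 members (15.6%), beside 16.3% of all tested peaks. These shares are near the background of the whole table. The count of 7 unadjusted calls was 4 with limma-voom on recovered counts and 4 without CtrlCre replicate 2, Cpt1bcKO replicate 1 or Cpt1bcKO replicate 3, and it was 2 without Cpt1bcKO replicate 2.

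The median log2 difference over the tested members was -0.02, beside 0.01 over all tested peaks, with 21 members higher and 24 lower in Cpt1bcKO. This split depended on single libraries. Without Cpt1bcKO replicate 3 it was 15 higher and 30 lower, with a median of -0.065 beside 0.002 over all tested peaks. Without Cpt1bcKO replicate 2 it was 25 higher and 20 lower, with a median of 0.015 beside 0.009. Relative to all peaks of the same library, the median member deviated by -0.03 to 0.09 on the log2 scale in CtrlCre libraries and by -0.06 to 0.06 in Cpt1bcKO libraries, so the genotypes overlapped. Cpt1bcKO replicates 1 and 2 lay at -0.059 and -0.055 and Cpt1bcKO replicate 3 at 0.062. Normalization sets the bulk of peaks to no difference, so a change shared by all peaks cannot be seen in these values. By family, 4 of 5 Irx peaks, 5 of 12 Sox peaks and 11 of 21 Fox peaks had a log2 difference below 0. Among broad members 10 were higher and 12 lower, and among narrow members 6 and 5.

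Precision differed among the members. The 95% interval of the log2 difference lay within a 1.5-fold difference in either direction for 24 of 45 members and within 2-fold for 39. For 27 members with a mean of at least 50 the median SE was 0.12, and for the 18 weaker ones it was 0.35. Among members with a mean of at least 50 the largest log2 difference in size was 0.373, at Irx2. Differences of the size seen at Dlx5 or Sox7 rest on few counts, and at weak members such as the smaller Foxf2 peak and Hoxd1 the interval reached from -1.64 to 0.50 and from -1.39 to 0.55, which includes both no difference and a 2-fold lower value.

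**Figure D4:**
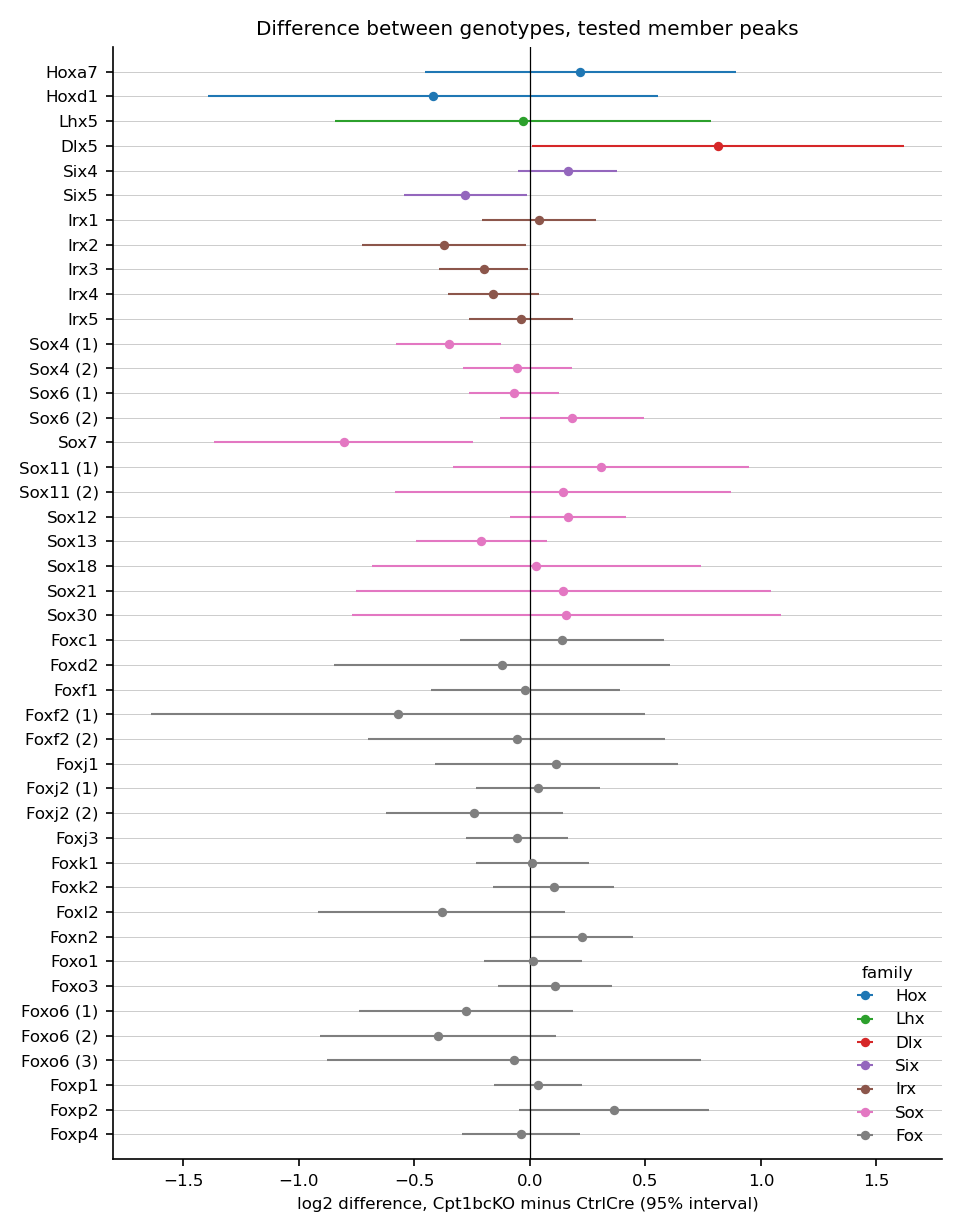
Log2 difference between Cpt1bcKO and CtrlCre (horizontal, points) with its 95% interval (lines) for 44 tested member peaks, coloured by family. Intervals are short for strong peaks such as Foxp1, Irx3 and Sox6 (1) and long for weak ones such as Foxf2 (1), Hoxd1 and Dlx5, and no peak had an adjusted p under 0.05.

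The partners and regulators of these factors were mostly marked. Beside the counts below, 2.93% of all tested peaks had an adjusted and 12.8% an unadjusted p under 0.05 in limma. The unadjusted share was 20.5% among broad and 8.89% among narrow peaks. All 12 listed cofactors of Hox and other homeobox proteins, such as Meis3 and Pknox2, had a tested peak. None of their 12 peaks passed an adjusted p of 0.05 in limma or limma-voom, 1 higher and 3 lower had an unadjusted p under 0.05, and the median log2 difference was 0.00. Of 16 listed cofactors of Sox, Fox and sine oculis factors 13 had tested peaks. An unadjusted p under 0.05 was found for 2 higher and 0 lower of their 14 peaks, and 1 passed the adjusted threshold. This was Dach1, a corepressor that works with Eya coactivators, at 227, 221 and 178 in CtrlCre and 276, 258 and 301 in Cpt1bcKO. It was higher in every Cpt1bcKO library, with a log2 difference of 0.42 ± 0.11 (SE, adjusted p = 0.0333). The adjusted p was 0.123 without Cpt1bcKO replicate 1, 0.186 without Cpt1bcKO replicate 3, 0.0517 without CtrlCre replicate 1 and 0.177 without CtrlCre replicate 3.

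Polycomb genes, whose products keep developmental genes silent, had tested peaks for 30 of 31 genes, and 0 of 34 peaks passed in limma or limma-voom. A single one, Phc1, had an unadjusted p under 0.05, and the median log2 difference was 0.03. Trithorax genes, which encode H3K4 methyltransferases, their partners and other opponents of Polycomb, had tested peaks for 15 of 17 genes. Of 16 peaks 1 passed in limma and 2 in limma-voom, and 2 higher and 1 lower had an unadjusted p under 0.05 in limma. Setd1b, an H3K4 methyltransferase, held 511, 518 and 577 in CtrlCre and 382, 376 and 369 in Cpt1bcKO. Its log2 difference was -0.51 ± 0.09 (SE, adjusted p = 0.00225), with every Cpt1bcKO library below CtrlCre. Among the core cardiac transcription factors 7 peaks were higher and 16 lower in Cpt1bcKO, with a median log2 difference of -0.05. An unadjusted p under 0.05 was found for 0 higher and 4 lower. The adjusted threshold was passed by 3 of 23 peaks, all lower in Cpt1bcKO. They were Hopx, Myocd and Tbx5, regulators of CM growth, muscle genes and chamber formation, at log2 differences of -1.02, -0.62 and -0.41. Tbx5 had an adjusted p of 0.0167 with all libraries, and of 0.0511, 0.0741 and 0.123 without Cpt1bcKO replicate 2, Cpt1bcKO replicate 3 or CtrlCre replicate 1. Of 257 peaks of numbered zinc finger genes 0 passed in limma and 1 in limma-voom, and 12 higher and 7 lower had an unadjusted p under 0.05. Whether the lists differ from the members or from all tested peaks was not tested.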

How the data were processed

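H3K4me3 ChIP-seq libraries of 3 CtrlCre and 3 Cpt1bcKO samples were grouped by their titles. The 6 input libraries have no column in the table and entered no comparison. The authors trimmed reads with Trimmomatic 0.39, aligned them to mm10 with STAR 2.6.1d, removed duplicates with Picard 2.21.7, called peaks with MUSIC (false discovery rate 0.2), merged them and normalized counts by DESeq2 1.26.0 size factors. Names follow the nearest promoter within 5000 bases. Each library column was deposited as rounded normalized counts and was treated as a score. The deposited genotype means are an unrounded signal, and both together gave back the whole counts of all 15848 peaks. The overlap with the gene body, a deposited fraction, entered no result. Columns with the authors' fold changes, p-values and adjusted p-values were not used.

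Log2(value + 1) was fitted with limma 3.58.1 (lmFit, eBayes with a trend, R 4.3.3) on genotype alone, for peaks with a mean of at least 10, two-sided, with Benjamini-Hochberg adjustment over all 15039. Differences on this scale understate changes of low peaks. The fit was tested on simulated data. At the median peak counting error was 8.06% to 15.2% per library, highest in CtrlCre replicate 2. Intervals of differences come from the fit, and depth floors cover counting error only. GC content, exons and gene starts were read from GRCm38.p6 and GENCODE vM21, the same build in another release than the one the authors used for names. The text names members with an adjusted or unadjusted p under 0.05, the strongest and widest peak of each family, a list of heart, vessel and muscle genes and all Hox peaks. Other members are named with values only as examples, after these were seen. A few family genes are counted but not reported here by name. Members and lists were chosen with earlier results of these data known. Replicate numbers did not pair the samples. Alternatives covered scaling, pseudocount, filter, test, GC content, the replicate block and each library left out.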

Additional observations from a re-analysis of the deposited data

How the results depend on the processing

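The count of members with an adjusted p under 0.05 stayed at 0 under every alternative with all libraries and ranged from 0 to 1 when each library was left out. The count with an unadjusted p under 0.05, 7 as reported, was 4 with limma-voom and 3 with the replicate block, and 2 to 7 without a library. Same-numbered samples deviated together at correlations of only 0.0759, -0.0812 and 0.105, so the numbers were not taken as pairs. The count of listed cofactor, chromatin regulator, cardiac factor and zinc finger peaks past the adjusted threshold, 5 as reported, was 3 with the replicate block, where Dach1 and Tbx5 had an adjusted p of 0.0635 and 0.0543, and 3 to 7 without a library. Non-overlapping members numbered 7 to 14 without a library, where 3 values face 2 and separation comes more easily. The share over all tested peaks was not counted for 3 values against 2, so these counts have no background beside them. The median log2 difference ranged from -0.065 to 0.015 without a library, and the highest peak of each gene gave 0.00. Broad members were 33.3% at the 90th percentile, and 24 genes kept a peak at a mean of at least 50. Of 31 named peaks 19 kept their direction under every alternative that tested them, which was 15 alternatives, or 14 for peaks with a mean under 50. The sign turned for Foxf1 with the GC correction (0.023, and 0.023 with the replicate block added), for Foxk1 under quantile normalization and upper-quartile scaling (-0.007 and -0.006), for Foxo1 under the same (-0.013 and -0.004), for Lhx5 under quantile normalization (0.041), and for Foxp4 with limma-voom (0.017). Without a library the sign turned within the ranges -0.085 to 0.303 (Foxc1), -0.13 to 0.18 (Foxf1), -0.020 to 0.038 (Foxk1), -0.072 to 0.073 (Foxo1), -0.037 to 0.256 (Foxo3), -0.12 to 0.10 (Foxp4), -0.085 to 0.569 (Hoxa7), -0.057 to 0.093 (Irx1), -0.153 to 0.034 (Irx5), -0.21 to 0.23 (Lhx5), -0.32 to 0.39 (Sox11 at its start) and -0.20 to 0.34 (Sox18). None of these peaks was past the threshold in any alternative, and the cause was not tested.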
